A study of Mus musculus with 8 samples.

Results

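The genes described are 8 markers of intestinal tuft cells, Trpm5, Ptgs1, Dclk1, Pou2f3, Gnat3, Il25, Avil and Alox5ap. The list was chosen with earlier results of these data known. It was read through every non-control probe that carries one of these names. The 8 genes were measured by 11 of 55681 probes and are among the 25072 genes named on the array. The samples were 2 cm fragments of intestine from 129SV pups at 3 days of age. They formed 4 groups of 2 arrays each: claudin-7 knockout (KO) small intestine, wild-type (WT) small intestine, KO large intestine and WT large intestine. The arrays of each group are numbered 2 and 3. The labels name the knockout only as claudin-7 KO, give no treatment, and do not say which fragments came from the same pup, so p-values measure only the spread between these samples. Total RNA of the whole fragment was hybridised to 1-colour Agilent arrays. A level therefore sums over all cells of the gut wall, and fewer cells of a type cannot be told apart from less RNA per cell.

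Tuft cells are rare epithelial cells that sense luminal signals through a cascade shared with taste cells, in which a G protein of the gustducin type leads to calcium release and opening of the channel Trpm5. The transcription factor Pou2f3 is needed for their formation. They secrete interleukin-25, acetylcholine and eicosanoids, and in the mouse gut they start the type 2 immune circuit against worms and some protists. Several of the 8 genes are also used elsewhere in the gut wall: Dclk1 in neurons, Ptgs1 in platelets and stromal cells, Alox5ap in myeloid cells and Avil in sensory neurons.

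Levels are given as percent of the array's 75th percentile of signal (2642.51 to 3571.77 signal units over the 8 arrays), and differences between groups as the difference of their mean log2 levels, so that a fold is a ratio of geometric means of 2 arrays each. With 2 arrays per group the precision is low, and a typical (median) standard error of KO minus WT in either segment was 0.28. A difference was called at a limma adjusted p under 0.05 (Benjamini-Hochberg over 19994 genes). Cldn7 itself lay at 0.94 to 2.21 on the KO arrays and 5.56 to 5.93 on the WT arrays (log2 over the 75th percentile), and its KO minus WT difference was -4.34 in small and -3.52 in large intestine. Whether this probe lies within the deleted part of the gene is not given in the sources used here. Xist stood at -2.42 and -2.43 on the KO arrays numbered 3 and at -7.46 to -6.25 on the other 6, while the Y-linked Ddx3y stood at or below -8.47 on those 2 arrays and at 0.70 to 1.33 on the other 6. The 2 arrays thus stood apart in the genes that differ by sex. Within the KO groups this cannot be told apart from the number 3, and the WT groups held no such array. KO small intestine array 3 was the higher of the KO small intestine arrays for Trpm5, Ptgs1, Dclk1, Alox5ap and Avil, and calls are also given without both arrays. All 8 arrays lay on 1 slide, with arrays numbered 2 in row 1, arrays numbered 3 in row 2 and each group in a column of its own. Slide column and group cannot be told apart.

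Probes were detected unequally. Trpm5, Ptgs1, Alox5ap and 3 of the 4 Dclk1 probes were well above background on all 8 arrays, Avil on 7, Pou2f3 on 5, Il25 on 2 and Gnat3 on 0. The fit required both arrays of at least 1 group to be well above background, which left 6 of the 8 genes, with Il25 and Gnat3 outside. The probes of Trpm5, of Dclk1 and of Gnat3 are shown because they span the range from a changed gene to one never detected. The Trpm5 probe is placed at chr7:150257434-150257456 of mm9 on the minus strand, which covers 23 of its 60 bases. The Dclk1 probe at chr3:55266925-55266984 (plus strand) is listed for all 4 RefSeq transcripts of the gene on the array. The Gnat3 probe at chr5:17525427-17525486 (plus strand) ends in a stop codon, in capitals.
Trpm5 probe: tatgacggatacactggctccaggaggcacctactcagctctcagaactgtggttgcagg
Dclk1 probe: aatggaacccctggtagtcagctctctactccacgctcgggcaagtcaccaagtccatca
Gnat3 probe: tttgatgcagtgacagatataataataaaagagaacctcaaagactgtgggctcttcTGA

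**Figure D1:**
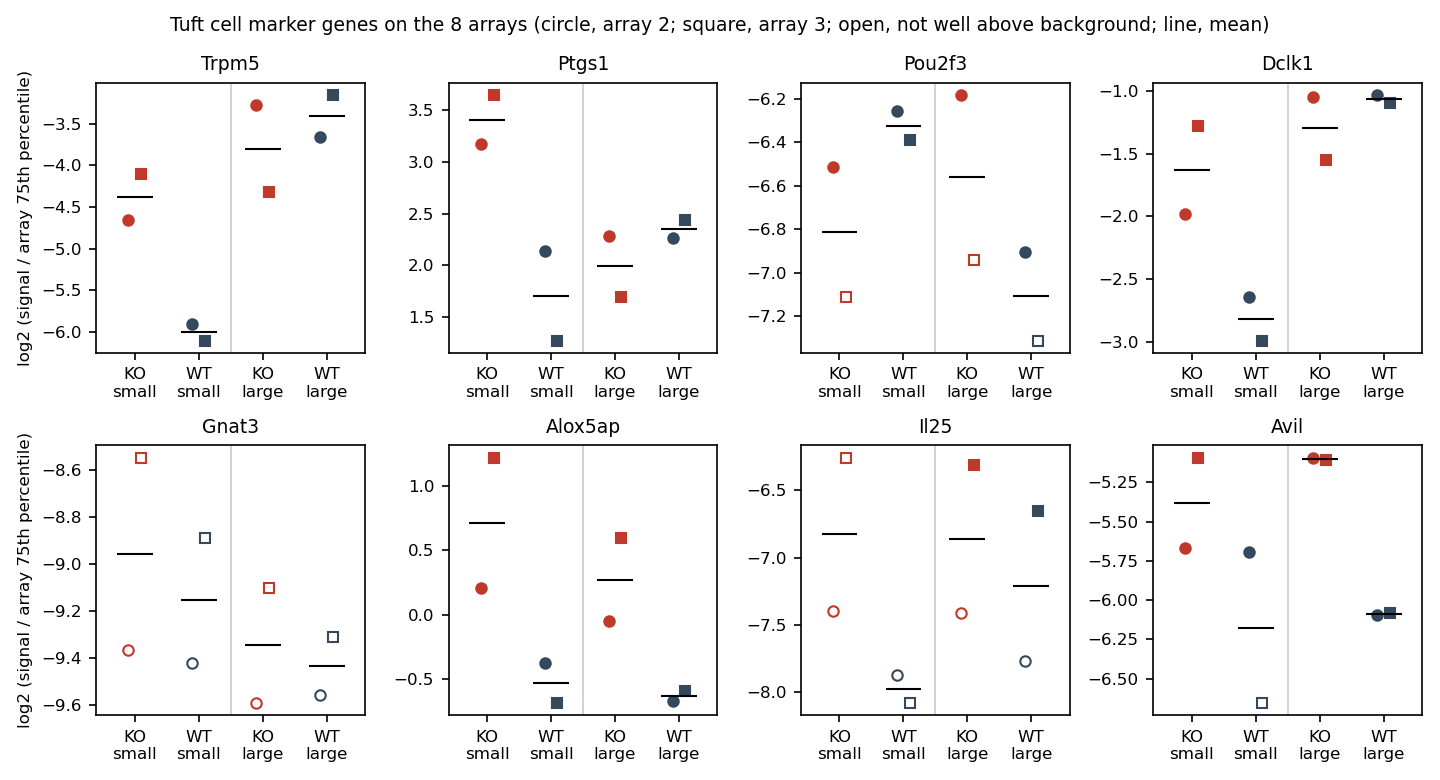
Level of each gene on the 8 arrays, as log2 signal relative to the 75th percentile of its array (vertical axis), for KO and WT small intestine and KO and WT large intestine (horizontal axis); circles are arrays numbered 2, squares arrays numbered 3, open symbols are not well above background and lines are group means of 2 arrays. Trpm5, Ptgs1, Dclk1 and Alox5ap lay higher on both KO than on both WT arrays of small intestine, and Gnat3 was open on all 8 arrays.

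In the small intestine 2 of the 6 tested genes were called, Trpm5 and Ptgs1, both higher in KO, and 0 were called lower. Over all genes tested, 6.48% were called higher and 3.55% lower. The median KO minus WT difference of the 6 genes was 1.21, beside -0.10 for all genes. Both KO arrays lay above both WT arrays for 5 of the 6 (all but Pou2f3), as did 26.6% of all genes. The list was chosen with earlier results of these data known. The contrasts with all genes are therefore descriptions, and no test is read from them.

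Trpm5, the channel at the end of the taste-type cascade, stood at 3.95 and 5.82% of the 75th percentile on the KO small intestine arrays, against 1.67 and 1.46% on the WT arrays. The groups did not overlap, and the KO geometric mean was 3.08-fold that of WT (log2 difference 1.62 ± 0.39 SE, limma adjusted p = 0.0497). The difference was 1.24 between the arrays numbered 2 and 2.00 between those numbered 3. With every kept probe fitted on its own, Trpm5 did not pass (limma adjusted p = 0.0512 over 25989 probes). The call sits at the threshold. The difference stayed positive (0.91 to 1.90) in all 20 alternatives, but the call was lost in 12 of them. Among these were the fits without WT small intestine array 2 or 3 and without KO small intestine array 3. It was also lost without WT large intestine array 2 or 3, or without both KO arrays numbered 3.

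Gnat3, the alpha subunit of gustducin, was not well above background on any array. Its level was between 0.130 and 0.268% on all 8, and the groups overlapped in both segments. Without the filter on background its KO minus WT difference in small intestine was 0.20 ± 0.36 (limma adjusted p = 0.797).

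Ptgs1, cyclooxygenase-1, which makes the prostaglandin precursor PGH2, stood at 899.6 and 1249% on the KO small intestine arrays, against 440.2 and 242% on the WT arrays. The KO geometric mean was 3.25-fold that of WT (log2 difference 1.70 ± 0.36, limma adjusted p = 0.0396). The WT arrays differed by 0.86 between themselves, more than the KO arrays (0.47). The call ended in 10 of 20 alternatives (differences 1.27 to 2.13), including without WT small intestine array 3 (adjusted p = 0.168), KO small intestine array 3 (0.168), WT large intestine array 2 (0.0835) or 3 (0.0836), KO large intestine array 2 (0.0552) or 3 (0.0550), or both KO arrays numbered 3 (0.192).

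Alox5ap, the membrane protein that presents arachidonic acid to 5-lipoxygenase, stood at 115 and 233% on the KO small intestine arrays, against 77.3 and 62.3% on the WT arrays. The groups did not overlap, but the difference of 1.24 ± 0.38 did not pass (limma adjusted p = 0.0773). It passed without KO small intestine array 2, the lower of the KO arrays (1.75, adjusted p = 0.0267).

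Pou2f3, the transcription factor that tuft cells need, was the exception in direction. However, it entered the fit only through WT small intestine, the only group with both arrays well above background. That group was also its highest (arithmetic mean 1.25%). The lower KO value is therefore tied to the filter, and no direction is read from it. Pou2f3 stood at 1.09 and 0.722% on the KO small intestine arrays, against 1.31 and 1.19% on the WT arrays. The difference of -0.49 ± 0.33 did not pass (limma adjusted p = 0.360), and 1 of the KO values was not well above background.

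Il25, the cytokine by which tuft cells alert type 2 lymphoid cells, stood at 0.594 and 1.31% on the KO small intestine arrays, against 0.427 and 0.370% on the WT arrays, and none of these 4 values was well above background. Fitted without the filter, its difference was 1.15 ± 0.57 (limma adjusted p = 0.271). No fold is read from values below background on both sides.

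Avil, advillin, an actin-bundling protein of the villin family, stood at 1.96 and 2.93% on the KO small intestine arrays, against 1.93 and 0.993% on the WT arrays, the lowest of which was not well above background. The KO array 2 and WT array 2 values were almost equal (difference 0.02), while those of arrays 3 differed by 1.56. The fitted difference was 0.79 ± 0.35 (limma adjusted p = 0.175).

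Dclk1, a microtubule-binding kinase, was read by 4 probes. The probe with the highest mean, listed for only 1 of the 4 transcripts (chr3:55273441-55273500, mm9), stood at 25.4 and 41.1% on the KO small intestine arrays, against 16.0 and 12.6% on the WT arrays. Its difference of 1.18 ± 0.30 missed the threshold (limma adjusted p = 0.0547) and passed it in 5 of 20 alternatives, with quantile normalisation, median scaling, the authors' normalised values, detection on all 8 arrays, and without KO small intestine array 2 (adjusted p 0.0281 to 0.234 over all 20). The gene is therefore not counted among those that changed in small intestine.

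The other Dclk1 probes gave differences of the same sign in small intestine. The probe shared by all 4 transcripts stood at 19.9 and 34.1% on the KO arrays, against 11.9 and 10.5% on the WT arrays. The probe of the remaining 3 transcripts (chr3:55340456-55340515, mm9, 67.015 kb from the first) stood at 44.2 and 55.9%, against 22.7 and 10.7%. Fitted as separate probes they differed by 1.22 ± 0.36 and 1.68 ± 0.42 (limma adjusted p = 0.0761 and 0.0542 over 25989 probes). The fourth probe, with no RefSeq transcript listed, was not well above background on any array.

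**Figure D2:**
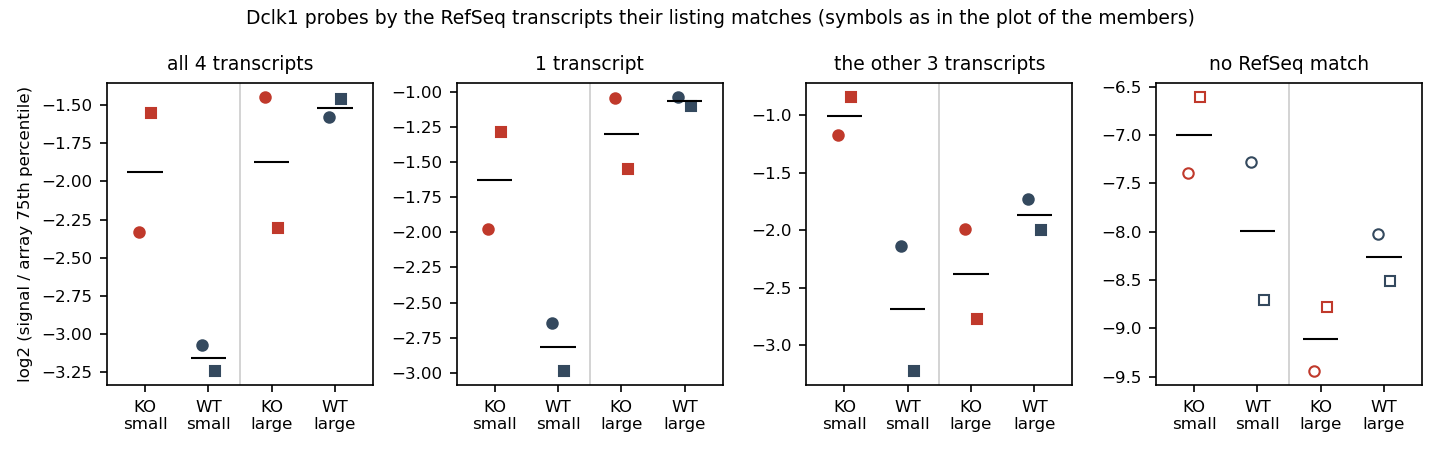
The 4 Dclk1 probes on the 8 arrays, each panel titled by the RefSeq transcripts listed for its probe; axes and symbols as in the plot of the 8 genes. On the 3 detected probes both KO small intestine arrays lay above both WT small intestine arrays; the fourth was open throughout.

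RefSeq promoters (250 bases upstream of the start, GRCm38.p6) were held for 5 of the 8 genes, in 6 windows, with none for Pou2f3, Il25 and Alox5ap. Those of Trpm5, Ptgs1 and Dclk1 are shown because these 3 genes had the lowest adjusted p in small intestine. The octamer bound by POU factors (ATGCAAAT or ATTTGCAT, both strands) was searched first. It was in 0 of the 6 windows and in 1.60% of all 32851 windows. Its last 5 bases, CAAAT, were also searched on both strands and are in capitals in the sequences, where the reverse strand reads ATTTG. They were in 3 of the 6 windows (Ptgs1, the first Dclk1 window and Avil) and in 34.2% of all. The windows are chr7:143094643-143094892 (minus strand), chr2:36230176-36230425, chr3:55242114-55242363 and chr3:55461478-55461727 (plus strand).
Trpm5 promoter: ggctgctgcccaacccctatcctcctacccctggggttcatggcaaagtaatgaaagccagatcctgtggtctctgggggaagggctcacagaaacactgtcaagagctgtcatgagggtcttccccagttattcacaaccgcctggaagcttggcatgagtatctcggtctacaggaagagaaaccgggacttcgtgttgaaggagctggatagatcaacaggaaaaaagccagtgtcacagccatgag
Ptgs1 promoter: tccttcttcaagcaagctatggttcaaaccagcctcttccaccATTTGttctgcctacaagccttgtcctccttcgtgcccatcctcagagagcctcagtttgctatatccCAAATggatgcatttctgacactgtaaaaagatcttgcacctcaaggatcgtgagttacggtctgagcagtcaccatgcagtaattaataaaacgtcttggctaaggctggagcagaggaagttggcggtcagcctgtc
Dclk1 promoter 1: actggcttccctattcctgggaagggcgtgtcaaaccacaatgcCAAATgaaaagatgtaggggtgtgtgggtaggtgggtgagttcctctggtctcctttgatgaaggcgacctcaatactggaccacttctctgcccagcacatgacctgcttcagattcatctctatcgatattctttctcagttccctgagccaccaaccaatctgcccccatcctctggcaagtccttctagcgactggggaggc
Dclk1 promoter 2: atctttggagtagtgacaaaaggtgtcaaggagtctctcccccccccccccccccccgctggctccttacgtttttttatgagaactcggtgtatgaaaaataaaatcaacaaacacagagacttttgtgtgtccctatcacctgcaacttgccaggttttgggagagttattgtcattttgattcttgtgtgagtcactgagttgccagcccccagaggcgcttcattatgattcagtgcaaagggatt

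In the large intestine 0 of the 6 tested genes were called (0.165% of all genes were called higher in KO and 0.145% lower). The median KO minus WT difference was 0.16, beside 0.00 for all genes. The direction was split, with 3 genes above 0 and 3 below. Both KO arrays lay above both WT arrays for 2 of the 6, Avil and Alox5ap, as did 27.7% of all genes.

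The 3 genes with the lowest p in small intestine had overlapping groups in large intestine. Trpm5 stood at 10.3 and 4.99% on the KO arrays, against 7.88 and 11.2% on the WT arrays, a difference of -0.39 ± 0.39 (limma adjusted p = 0.684). Ptgs1 stood at 487 and 324% in KO, against 479 and 543% in WT, a difference of -0.36 ± 0.36 (adjusted p = 0.680). In both genes KO large intestine array 3 was the lowest of the 4. Dclk1 stood at 48.4 and 34.1% in KO, against 48.8 and 46.7% in WT, a difference of -0.23 ± 0.30 (adjusted p = 0.752). Without KO large intestine array 3 the signs of the Trpm5 and Dclk1 differences turned, to 0.14 and 0.02. Single large intestine arrays also stood apart in pancreas and liver genes. Pancreas markers summed to 580% on KO array 3 and 704% on WT array 2, against 20.6% on KO array 2 and 17.4% on WT array 3. The liver gene Alb stood at 5.23 (log2) on KO array 2 and at -5.06 to -4.53 on the others. The part of such tissue in these differences was not tested.

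Alox5ap and Avil kept the KO arrays above the WT arrays in both segments. Alox5ap stood at 96.9 and 151% in KO large intestine, against 63.0 and 66.5% in WT, a difference of 0.90 ± 0.38 (limma adjusted p = 0.377). Avil stood at 2.93 and 2.90%, against 1.46 and 1.48%, and these 4 values were tight within groups (SD of log2 0.01 in each), but the shared spread of the fit gave 0.99 ± 0.35 (adjusted p = 0.317). Over both segments together Alox5ap differed by 1.07 ± 0.27 (adjusted p = 0.120) and Avil by 0.89 ± 0.24 (adjusted p = 0.147), and 0 of the 6 genes were called (background 0.395% higher, 0.240% lower).

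Pou2f3 stood at 1.38 and 0.815% in KO large intestine, against 0.835 and 0.629% in WT, with 1 array of each group not well above background. The difference was 0.55 ± 0.33 (limma adjusted p = 0.515), so its sign differed between the segments without passing in either. The sign in small intestine is tied to the background filter. Il25 stood at 0.589 and 1.26% in KO, against 0.458 and 0.994% in WT, and the higher value of each pair, on the arrays numbered 3, was well above background.

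**Figure D3:**
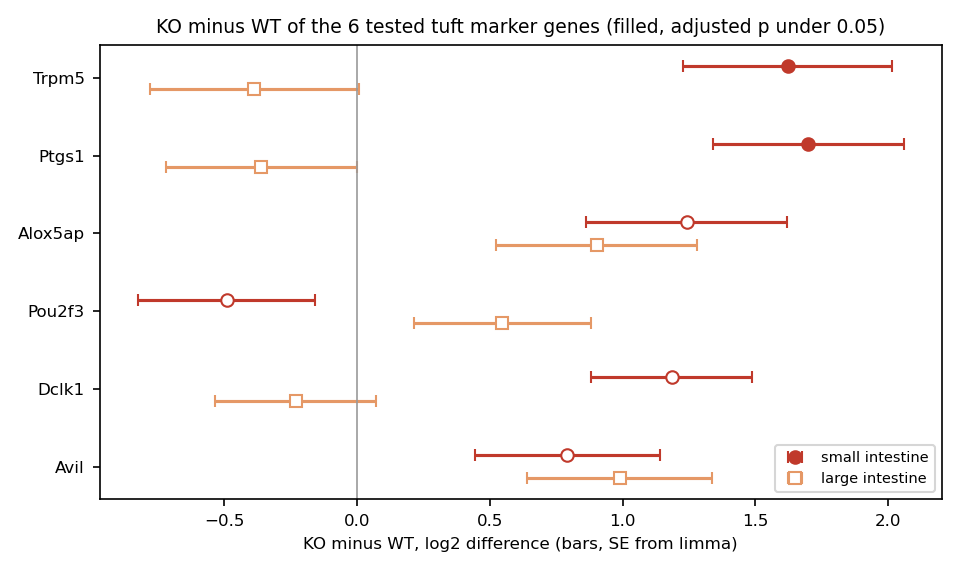
KO minus WT log2 difference with its limma standard error (horizontal axis) for the 6 tested genes (rows), in small intestine (circles) and large intestine (squares); filled symbols passed an adjusted p of 0.05. Only Trpm5 and Ptgs1 in small intestine are filled, at 1.62 and 1.70.

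The difference of the KO effect between segments (large minus small) was tested directly. It was -2.06 ± 0.51 for Ptgs1 (limma adjusted p = 0.0994), -2.01 ± 0.56 for Trpm5 (0.104) and -1.42 ± 0.43 for Dclk1 (0.116). None of the 6 genes passed (0.140% of all genes were called in either direction), so a KO effect in small but not in large intestine was not shown for them.

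In WT tissue the large intestine exceeded the small for Trpm5 and Dclk1, 2 of the 6 genes, and 0 were called lower (10.0% of all genes were called higher and 9.99% lower). Trpm5 stood at 7.88 and 11.2% on the WT large intestine arrays, against 1.67 and 1.46% on the WT small intestine arrays, 6.02-fold higher (log2 difference 2.59 ± 0.39, limma adjusted p = 0.00772). Dclk1 stood at 48.8 and 46.7%, against 16.0 and 12.6%, 3.36-fold higher (1.75 ± 0.30, adjusted p = 0.0121). The Trpm5 call was lost in 1 of 20 alternatives, without WT large intestine array 3 (adjusted p = 0.0627). The Dclk1 call was lost in 3, without WT large intestine array 2 or 3 or WT small intestine array 3 (adjusted p up to 0.0797). Of the other Dclk1 probes, the one shared by all transcripts differed by 1.64 ± 0.36 (adjusted p = 0.0267) and the one of the remaining 3 transcripts by 0.82 ± 0.42 (adjusted p = 0.212), and the difference between probes was not tested. Ptgs1 (0.64), Avil (0.09), Alox5ap (-0.10) and Pou2f3 (-0.79) did not pass. Pou2f3 entered the fit only through WT small intestine, its highest group, so its sign here is also tied to the filter.

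The order of the groups thus differed from gene to gene. For Trpm5 the WT large intestine mean was highest and the WT small intestine lowest, and KO large intestine did not differ from WT large intestine beyond the spread of its arrays. For Ptgs1 KO small intestine was highest (arithmetic mean 1074.5%) and the other 3 groups had arithmetic means of 341 to 511%. Alox5ap and Avil ordered by genotype, with both WT groups below both KO groups in mean. The pattern of Trpm5 over the 8 arrays was close to that of Dclk1 (Pearson r = 0.98) and less so to Ptgs1 (0.38), Avil (0.39), Alox5ap (0.15) and Pou2f3 (-0.52). These are descriptions over 8 arrays that share groups and scaling.

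Among 16972 ranked genes the closest to Trpm5 were Myl4, a myosin light chain (r = 0.99), Wfikkn2, a protease inhibitor that binds growth factors of the myostatin type (0.99), and Ankrd13d (0.99). The closest to Dclk1 were Il17d, a cytokine (0.997), Bend6 (0.99) and Fcna, ficolin A (0.99). Their KO minus WT differences in small intestine ran from 1.15 (Myl4) to 1.71 (Fcna), which the choice of genes by likeness over the same arrays largely fixed, so no test is read from them.

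Markers of other cell types in the wall moved in the same arrays. The counts stand beside 6.48% of all genes called higher and 3.55% lower in KO small intestine. The summed level of 10 enteric neuron markers was 4558 to 7405% in KO small intestine, against 1395 to 2456% in WT small intestine, and 7 of the 10 were called higher (median difference 1.89). Enteric glia markers summed to 1009 to 1295%, against 253 to 484%, with 5 of 8 called higher and 1 lower. Smooth muscle markers summed to 45930 to 56089%, against 16403 to 29625%, with 1 of 9 called higher (median difference 1.65). All smooth muscle and glia markers were well above background on every array, and the neuron markers on every array but WT small intestine 3, where 9 of 10 were.

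Within each segment the 4 arrays ran in the same order for Trpm5, Ptgs1 and the smooth muscle sum. In small intestine that order was KO 3, KO 2, WT 2 and WT 3 from high to low. Dclk1, Alox5ap, Avil and Il25 and the neuron, glia, platelet and stomach epithelium sums had the same order, so it sets none of these apart. For Il25 no small intestine value was well above background. For Avil, KO 2 and WT 2 differed by only 0.02 and WT 3 was not well above background, so little is read from the order of these genes. In large intestine the shared order was WT 3, KO 2, WT 2 and KO 3. There Dclk1 ran WT 2, KO 2, WT 3 and KO 3, and the neuron and glia sums WT 3, WT 2, KO 2 and KO 3. The share of all genes with these orders was not counted, and no test is read from them. Smooth muscle markers were at 46609 to 51164% in KO large intestine, against 50038 to 54530% in WT large intestine, and neuron markers at 2756 to 3480%, against 3859 to 4163%. In WT tissue 4 of 9 smooth muscle markers were called higher in large than in small intestine and 0 lower (median 1.29). Of 10 neuron markers 2 were called higher and 0 lower (median 1.31). Of 8 glia markers 1 was called higher and 1 lower (median 0.77). Over all genes 10.0% were called higher and 9.99% lower. The part of these cells in the Trpm5, Ptgs1 and Dclk1 differences was not tested.

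**Figure D4:**
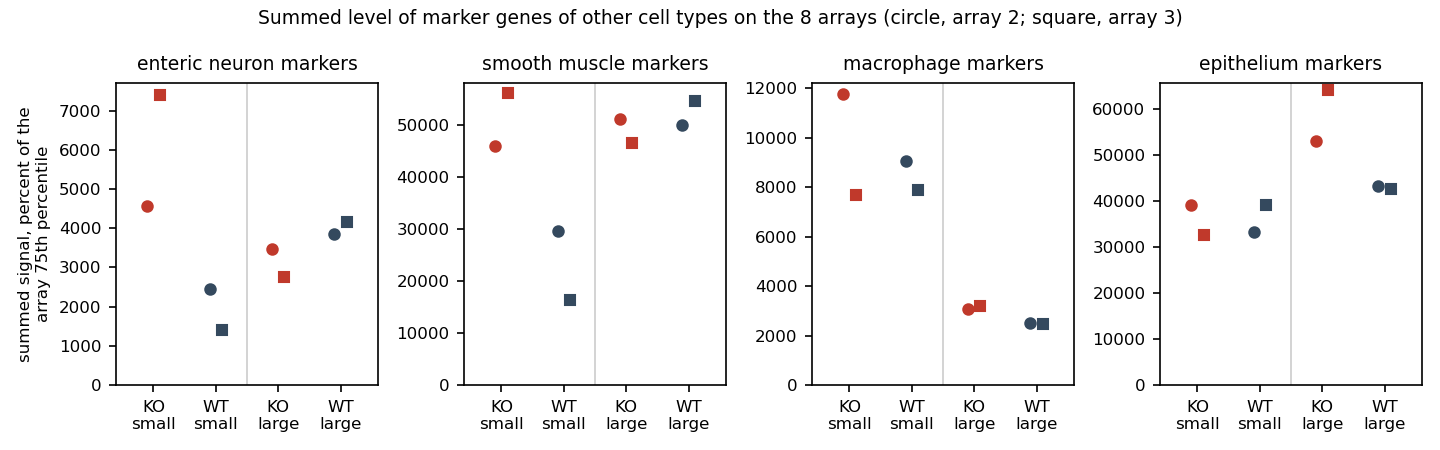
Summed level of the marker genes of 4 other compartments on each array, as percent of the array's 75th percentile (vertical axis, from 0), by group (horizontal axis); circles are arrays numbered 2 and squares arrays numbered 3. Neuron and smooth muscle sums were higher on both KO than on both WT small intestine arrays, while the epithelium sums of these groups overlapped.

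Ptgs1 is also used by platelets and Alox5ap by myeloid cells. The counts that follow stand beside 6.48% of all genes called higher and 3.55% lower in KO small intestine. In KO large intestine these shares were 0.165% and 0.145%. Platelet markers summed to 1543 to 2294% in KO small intestine, against 729 to 817% in WT, with 2 of 5 called higher (Pf4 and Ppbp) and 1 lower (Gp9, -3.45, limma adjusted p = 0.0325). Macrophage markers summed to 7667 to 11747%, against 7877 to 9040%, and these sums overlapped although 7 of 9 markers were called higher (median 0.99). Neutrophil markers summed to 2337 to 2800%, against 1826 to 2608%, with 3 of 8 called higher in small intestine (Fpr1, Fpr2 and Mmp8, median 2.37). A sum follows its brightest marker most. For macrophages that was Csf1r (mean log2 level 6.18 in KO and 6.22 in WT small intestine). For neutrophils it was Csf3r (4.20 and 4.33). In large intestine the neutrophil median was 2.24 with 0 of 8 called. The median of both myeloid lists was above 0 in both segments (macrophage median 0.25 in large intestine). So were the medians of platelet (1.45 in small and 0.78 in large intestine) and stomach epithelium markers (0.13 and 0.38), so this sets none of these lists apart. Stomach epithelium markers summed to 746 to 1056% in KO small intestine, against 58.7 to 93.9% in WT, with 2 of 8 tested called higher, Anxa10 and Vsig1. The median difference of the 8 was 0.13, with 4 above 0 and 4 below. Anxa10, which differed by 7.92, was the brightest of them in KO small intestine (mean log2 level 3.05). General epithelium markers summed to 32606 to 39239%, against 33333 to 39154%, with 1 of 10 called higher and 3 lower. Enteroendocrine markers summed to 8108 to 13703%, against 14426 to 16820%, with 4 of 8 called lower. The part of each in the results was not tested.

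Of 23 other tuft cell markers, 22 were tested and the KO minus WT median in small intestine was -0.04. In KO small intestine, where 6.48% of all genes were called higher and 3.55% lower, 2 were called higher, the signalling adaptor Vav1 (0.85, limma adjusted p = 0.0447) and Nrep (0.84, 0.0489), and 2 lower, Sh2d7 (-1.06, 0.0406) and the transcription factor Spib (-2.55, 0.0352). Vav1 is also used by blood cells and Spib by lymphoid and M cells. In KO large intestine 0 of 22 were called. In WT tissue 10.0% of all genes were called higher in large than in small intestine and 9.99% lower. Of the 22, Lrmp (3.88) and Nrep (0.85) were called higher. The prostaglandin D synthase Hpgds (-2.96), the succinate receptor Sucnr1, Siglecf (-1.21) and Ptpn6 (-1.03) were called lower. Sucnr1 was at least 54.7-fold lower, being not well above background on either WT large intestine array.

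Of 12 taste-type transduction genes, 9 were tested and 0 were called in KO of either segment, and the small intestine median was -0.34. The lowest adjusted p values in small intestine were those of Gnb3 (1.28, limma adjusted p = 0.0912), Trpm4 (-0.77, 0.128) and Itpr3 (-0.34, 0.391). Plcb2, the phospholipase between gustducin and Trpm5, differed by -0.25 ± 0.46 (adjusted p = 0.746). In WT tissue 1 of the 9 was called higher in large than in small intestine, the gamma subunit Gng13 (2.13, adjusted p = 0.0181), and 0 lower. Over all genes 10.0% were called higher and 9.99% lower. The median of the 9 was -0.55, with 7 below 0 and 2 above, so the list did not share the direction of Trpm5. The bitter receptors Tas2r108 and Tas2r138 were well above background on 0 arrays and the sweet receptor subunit Tas1r2 on 4.

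Of 23 eicosanoid genes beside Ptgs1 and Alox5ap, 2 were called higher in KO small intestine, prostacyclin synthase Ptgis (2.05, limma adjusted p = 0.0391) and the prostaglandin E receptor Ptger3 (2.64, 0.0360), and 1 lower, the prostaglandin D receptor Ptgdr (-1.73, 0.0323), again beside 6.48% and 3.55% of all genes. The median was 0.22. In KO large intestine 0 were called. In WT tissue 6 were called higher in large than in small intestine, among them Ptger3 (3.20), Ptgdr (3.36) and the degrading enzyme Hpgd (2.12). Another 3 were called lower, Ltb4r1 (-2.98), Hpgds (-2.96) and Ptges2 (-0.90). Over all genes 10.0% were called higher and 9.99% lower.

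Of 15 genes of the interleukin-25 and type 2 circuit, 13 were tested and 4 were called higher in KO small intestine with 0 lower (median 0.42; all genes 6.48% and 3.55%). They were the interleukin-33 receptor Il1rl1 (2.39, limma adjusted p = 0.0232), the alarmins Il33 (1.20, 0.0318) and Tslp (2.04, 0.0266), and the goblet cell protein Retnlb, which was at least 8.39-fold higher (0.00788) and not well above background on either WT small intestine array. Retnlb was also higher in KO large intestine (3.98, 0.0338), a call that ended in 7 of 19 alternatives: without WT large intestine array 2 (0.198) or 3 (0.326), KO small intestine array 3 (0.0501) or both KO arrays numbered 3 (0.0707), with the replicate block (0.0656), with only the groups compared (0.0512) and without the background filter (0.0569). The effector cytokine genes Il9 and Il13 were among those not tested. Il25 itself was not well above background on any small intestine array.

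Of 8 POU factors and partners of Pou2f3, 1 was called higher in KO small intestine, Pou2f2 (1.08, limma adjusted p = 0.0429), and 2 lower, the coactivator Pou2af1 (-2.23, 0.0457) and Atoh1, the secretory lineage factor (-1.61, 0.0394), beside 6.48% higher and 3.55% lower over all genes. Pou2f2 and Pou2af1 are best known from B cells. In KO large intestine 0 of 8 were called. Of the 14 genes of these lists called in KO small intestine, 14 lost the call without KO small intestine array 3 or without both KO arrays numbered 3, 13 without WT small intestine array 3, and 12 without either WT large intestine array. With only the groups compared 13 lost it, without the background filter 11 and with the replicate block 8.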

How the data were processed

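RNA of 8 samples was hybridised to Agilent 8x60K mouse arrays with Cy3, per the labels. The deposited scanner files give intensity per spot from Feature Extraction 10.7.3.1, background-subtracted within each array and not scaled between arrays, per the file headers, with probe positions on mm9. A deposited normalised table (intensity on a linear scale, per the file headers and values) served only as an alternative. The authors used R 3.3.0, per the submitters' processing notes, with no further step stated.

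The processed signal of every spot was divided by the 75th percentile of its array and log2-transformed. Control spots and flagged spots (148 to 312 per array) were left out, and 302 of 55681 probes were dropped for a flag. Between 63.6% and 72.1% of spots were well above background. A gene was represented by its kept probe with the highest mean, kept meaning well above background in both replicates of 1 group or more. Gene names were updated from RefSeq by accession (26056 probes), symbol (3200) or older symbol (930), with 2409 kept as in the files and 23086 unnamed. Group means were fitted over all 8 arrays with limma 3.58.1 in R 4.3.3 (4 residual degrees of freedom, 5 in the fit over both segments), with Benjamini-Hochberg adjustment over 19994 genes. The fit was tested on simulated data. The members and all gene lists were chosen with earlier results of these data known, and all 8 members are named, with, from each list, the genes that passed or the 3 with the lowest p. Group was taken from the sample titles. Alternatives were other background correction, scaling, filters, probe choice, prior, the replicate block, fewer groups and leaving out arrays.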

Additional observations from a re-analysis of the deposited data

How the results depend on the processing

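Genes called over the whole array changed most with the filter and the arrays included. In small intestine (2005 genes, KO minus WT) the count was 487 without the background filter, 1140 with the replicate block, 32 with only the groups compared, 14 without both KO arrays numbered 3 (an alternative chosen after seeing the data), and 70 to 3838 leaving out 1 array. In large intestine (62 genes) it was 101 with median scaling, 19 without the filter, 32 with detection on all 8 arrays, 15 with the replicate block, 123 with only the groups compared, 100 without both KO arrays numbered 3, and 0 to 86 leaving out 1 array. For the difference between segments (28 genes) it was 15 without the filter, 5 with detection on all 8 arrays, 11 without both KO arrays, and 1 to 990 leaving out 1 array. Over both segments (127 genes) it was 84 with normexp, 192 with median scaling, 84 with the deposited normalised table, 53 without the filter, 66 with the replicate block, 5 without both KO arrays, and 1 to 65 leaving out 1 array. For WT large minus small intestine (3998 genes) it was 916 to 4977 leaving out 1 array. The cause was not tested.

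With the replicate block, the small intestine differences of Trpm5 (adjusted p = 0.0676) and Ptgs1 (0.0533) no longer passed in limma. Arrays with the same number shared their deviations at r of 0.00816 to 0.263 across genes, and the labels do not say that the number marks a shared animal. Trpm5 also did not pass with normexp (log2 difference 0.91), with outlier flags ignored (adjusted p = 0.0507) or with the mean of a gene's probes (adjusted p = 0.0509). Neither gene passed without the filter or with only the groups compared (adjusted p 0.0625 to 0.129).

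The sign turned for differences that had not passed. Leaving out 1 array gave KO minus WT in large intestine of -0.91 to 0.14 for Trpm5, -0.48 to 0.021 for Dclk1, and -0.78 to 0.076 for the Dclk1 probe shared by all transcripts. Without both KO arrays numbered 3 these were 0.14, 0.021 and 0.076. The difference between segments ranged from -0.28 to 0.68 for Avil and from -0.85 to 0.17 for Alox5ap. WT large minus small intestine ranged from -0.39 to 0.57 for Avil (-0.084 with normexp) and from -0.26 to 0.055 for Alox5ap, and KO minus WT over both segments from -0.23 to 0.25 for Pou2f3. Gnat3, and Il25 in small intestine, are limited by signal near background.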
